A study of Mus musculus with 2 samples.

Results

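The phagocyte NADPH oxidase subunits described here are 6 genes, Cybb, Cyba, Ncf1, Ncf4, Rac1 and Rac2, chosen by name from 43346 measured Ensembl genes. The data are 2 total RNA-seq libraries of primary mouse cells labelled megakaryocyte progenitor (CFU-Meg), the precursor of the cells that release platelets. The mice were male C57BL/6J, 5 to 6 weeks old, no engineered allele or treatment is named in the labels, and 1 ng of RNA went into each library. The 2 libraries form 1 group, are numbered replicate 1 and replicate 2, and come from separate biosamples with the same donor identifier. The spread between them may therefore not be the spread between animals, and no condition was compared.

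The phagocyte oxidase moves electrons from NADPH in the cytosol across a membrane onto oxygen, which makes superoxide, the start of the respiratory burst of neutrophils and macrophages. Cybb encodes gp91phox (NOX2), the chain that carries the flavin and the hemes, and Cyba encodes p22phox, its partner in the membrane. Ncf1 (p47phox) and Ncf4 (p40phox) belong to a complex that waits in the cytosol, and a Rac GTPase loaded with GTP joins the assembled enzyme. In humans, inherited loss of a phox chain causes chronic granulomatous disease. Oxidase genes are known as myeloid genes that rise as granulocytes and monocytes mature.

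The libraries held 82746658 and 75652762 expected counts, which are reads assigned to genes with shared reads divided, in replicates 1 and 2. At 1 TPM or more, where TPM is a length-corrected share of all transcripts per library, scaled to a fixed total, 11905 and 11561 genes were measured. The labelled cell type was checked against its markers, and the data went against it. Of 15 megakaryocyte markers 3 reached 1 TPM in both libraries, Gp6 and Tubb1 were listed at 0, and the summed level was 15.3 and 8.75 TPM in replicates 1 and 2. Itga2b, the alpha chain of the platelet fibrinogen receptor, stood at 2.63 and 2.18 TPM, and the platelet chemokine gene Pf4 at 0.94 and 0.27 TPM. All 6 neutrophil precursor markers passed 1 TPM with a sum of 13783 and 12441 TPM, led by Mpo, the myeloperoxidase gene, at 6306 and 5478 TPM, with the neutrophil elastase gene Elane at 3661 and 2759 TPM. The libraries are therefore named by their label only. In bulk RNA, fewer cells of a type and less RNA per cell cannot be told apart.

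All 6 members were measured well above the floor. Each reached 1 TPM in both libraries, beside 46.2% of 21474 protein-coding genes, and all 6 passed the filter on low counts. Their summed level was 490 TPM in replicate 1 and 559 in replicate 2, of which the Rac genes made up 62.1% and 59.5%. From the highest to the lowest mean the order was Rac1, Rac2, Ncf1, Ncf4, Cyba and Cybb.

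The membrane chains differed in level. Cybb lies on chromosome X at 9435252 to 9487771 on the minus strand (GRCm38, ENSMUSG00000015340.6). It was at 27.8 TPM in replicate 1 and 36.55 TPM in replicate 2, a mean of 32.2 ± 6.18 TPM (SD, n = 2). This was the lowest mean of the 6, yet 90.4% of protein-coding genes lay below it. The levels rested on 6818 and 8258 reads. Cyba lies on chromosome 8 at 122424776 to 122432930 on the minus strand (ENSMUSG00000006519.10). It was at 48.6 and 65.4 TPM, a mean of 57.0 ± 11.9 TPM (SD, n = 2), from 1871 and 2348 reads. In both libraries the p22phox gene was the higher of the pair, and the ranges of the genes did not overlap. The ratio of Cyba to Cybb TPM was 1.75 in replicate 1 and 1.79 in replicate 2, so the ratio moved less between the libraries than either gene did.

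The cytosolic subunits lay close together at the gene level. Ncf1, the organizer that carries the oxidase's main phosphorylated tail, lies on chromosome 5 at 134220053 to 134229625 on the minus strand (ENSMUSG00000015950.9). It was at 57.0 and 62.5 TPM, a mean of 59.7 ± 3.85 TPM (SD, n = 2), from 9053 and 9199 reads. Ncf4, whose protein binds phosphatidylinositol 3-phosphate on phagosomes, lies on chromosome 15 at 78244801 to 78262580 on the plus strand (ENSMUSG00000071715.7). It was at 52.4 and 62.3 TPM, a mean of 57.3 ± 7.02 TPM (SD, n = 2), from 2210 and 2391 reads. The ranges of Ncf1 and Ncf4 overlapped, as did those of Ncf4 and Cyba, and Cyba stood above Ncf4 in replicate 2. The places of these 3 genes in the order therefore do not differ beyond their spread, whereas the other neighbours were separate in both libraries.

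The GTPase genes were the highest. Rac1, the form found in most cell types, lies on chromosome 5 at 143503634 to 143528036 on the minus strand (ENSMUSG00000001847.10). It was at 190 and 202 TPM, a mean of 196 ± 8.05 TPM (SD, n = 2), from 22886 and 21725 reads. Rac2, the form largely restricted to blood cells, lies on chromosome 15 at 78559167 to 78572783 on the minus strand (ENSMUSG00000033220.6). It was at 114 and 131 TPM, a mean of 122 ± 12.1 TPM (SD, n = 2), from 20489 and 21888 reads. Rac2 made up 37.4% and 39.4% of the TPM of the pair in replicates 1 and 2, so Rac1 was the more abundant in both. Rac3, the third Rac gene, was near the detection limit at 0.15 and 0.32 TPM, from 9 and 13 reads.

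**Figure D1:**
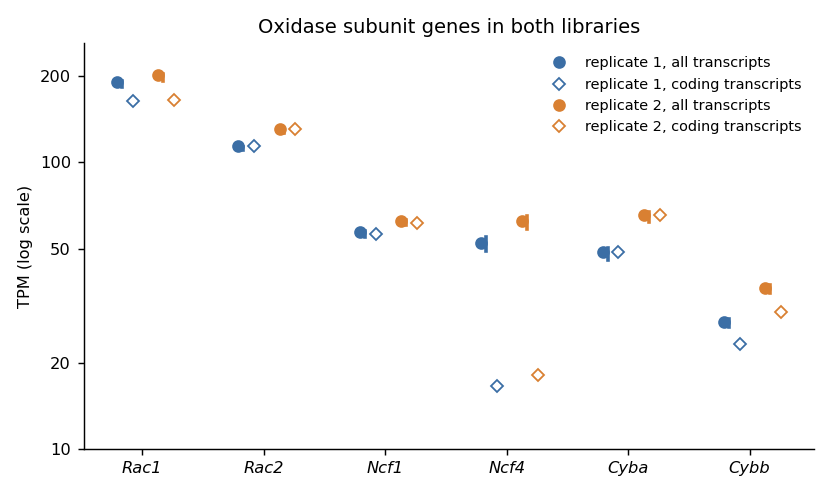
Level of each oxidase gene in TPM on a log scale, with replicate 1 in blue and replicate 2 in orange; circles are all transcripts of the gene, diamonds its protein-coding transcripts, and the short bars beside the circles the authors' credibility intervals. Circles of replicate 2 stand above those of replicate 1 for all 6 genes, and the diamonds of Ncf4, at 16.6 and 18.1 TPM, lie far under its circles.

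All 6 members had higher TPM in replicate 2, beside 43.2% of genes tested, and each differed by less than 2-fold. The question was how far the libraries differ in oxidase RNA, and each gene's reads were tested, two-sided, by an exact binomial test on the scaled library sizes, with Benjamini-Hochberg adjustment over 14304 genes. A call needed an adjusted p under 0.05 and a log2 ratio of at least 1 in size, and 0 of the 6 members were called, beside 7.66% of all genes tested (2.62% higher and 5.04% lower in replicate 2). That share includes genes of lower level, which spread more. The median size of the log2 ratio was 0.25 at 1 to 10 TPM, 0.13 at 10 to 100 TPM and 0.11 at 100 TPM or more. All 6 members lie in the upper classes. Without the fold threshold all 6 passed at the adjusted p, each higher in replicate 2, beside 59.0% of all genes (29.4% higher and 29.7% lower in replicate 2). At this depth most genes pass on the p alone, so the sizes carry more than the p-values. The median log2 ratio of the 6 was 0.25, and that over all genes tested was 5.66e-05. The test compares 2 libraries, not conditions, and reads without molecular identifiers are not independent molecules, so its p-values and intervals cover counting error only.

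The membrane chains differed the most. The log2 ratio of replicate 2 over replicate 1 was 0.48 for Cyba, with a 95% interval of 0.39 to 0.57 and an adjusted p of 2.27e-25 in the exact binomial test. It was 0.43 for Cybb, with an interval of 0.38 to 0.47 and an adjusted p of 4.97e-71 in the same exact test. Among 5102 genes at 10 to 100 TPM, whose median size of the log2 ratio was 0.13, these differences were larger than those of 95.7% of genes for Cyba and 94.2% for Cybb.

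The other 4 members differed less. The log2 ratio was 0.26 for Ncf4 (interval 0.18 to 0.35, exact binomial test, adjusted p = 3.9e-09) and 0.17 for Ncf1 (interval 0.13 to 0.21, adjusted p = 7.83e-15). It was 0.24 for Rac2 (interval 0.22 to 0.27, exact binomial test, adjusted p = 3.88e-66) and 0.07 for Rac1 (interval 0.05 to 0.10, adjusted p = 2.6e-07). Ncf4 exceeded 81.1% and Ncf1 64.1% of the genes of their level class. In the class at 100 TPM or more, of 662 genes, Rac2 exceeded 85.8% and Rac1 34.1%, so Rac1 differed less between the libraries than most genes as abundant as it. The authors' credibility intervals of TPM did not overlap between the libraries for 5 of the 6 genes, all but Rac1, beside 43.5% of all genes tested. That share covers genes of every level and read number, and none was computed for genes of like level.

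**Figure D2:**
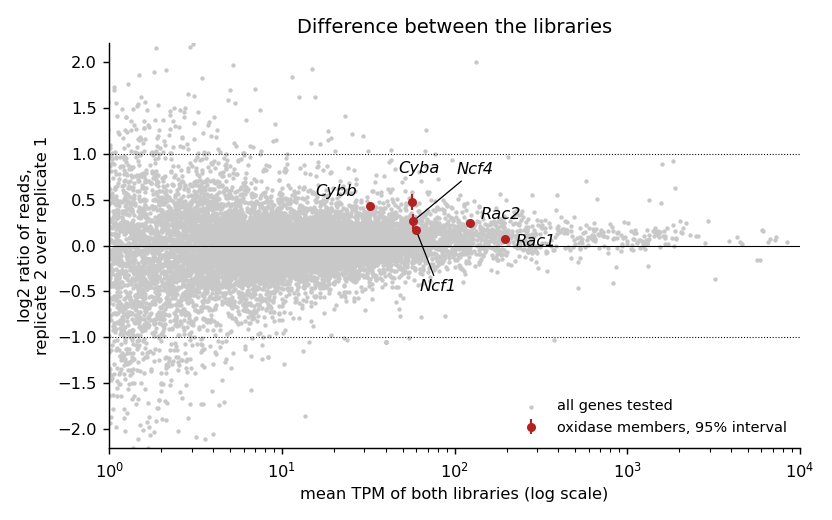
Log2 ratio of scaled reads, replicate 2 over replicate 1, against mean TPM on a log scale, with all genes tested in grey and the 6 oxidase genes in red with 95% intervals that cover counting error; dotted lines mark a log2 ratio of 1 in size, and points beyond the axes are not drawn. The oxidase genes lie between 0.07 for Rac1 and 0.48 for Cyba, all above 0 and below the upper dotted line.

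Marker lists of other cell types differed between the libraries as well. Over all genes tested, 29.4% were higher and 29.7% lower in replicate 2 at the adjusted p. Of 11 monocyte markers 10 were higher in replicate 2 at the adjusted p, with a sum of 3007 and 3454 TPM. Most of that sum was Ly6c2, at 2767 and 3120 TPM. Of 10 late neutrophil markers 7 were higher and 1 lower, with a sum of 3264 and 5631 TPM. S100a8 led that list, at 1313 and 2377 TPM. Of 11 erythroid markers 1 was higher and 8 were lower, with a sum of 743 and 386 TPM. Most of that sum was Car1, at 512 and 242 TPM. Of 6 macrophage markers 2 reached 1 TPM and could be tested, and both were higher in replicate 2, with a sum over the list of 13.2 and 18.9 TPM. The complement gene C1qa, another of the 6, was at 0.23 and 0.1 TPM, from 13 and 5 reads. Of 6 neutrophil precursor markers 4 were higher and 2 lower. Of 6 stem and multipotent progenitor markers 5 were tested, of which 0 were higher and 4 lower, with a median log2 ratio of -0.59. Their list had a sum of 99.4 and 85.2 TPM, most of it Cd34, at 82.9 and 73.6 TPM. Csf1r, the receptor for the monocyte growth factor M-CSF, was at 14.4 and 19.1 TPM. The part of these markers in the differences of the oxidase genes was not tested.

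The transcripts behind the gene levels differed among the members. Cyba and Rac2 each had 1 annotated transcript, which took all of their reads. In Ncf1 the coding transcript ENSMUST00000111275.3, of 2721 bases, made up 97.85% and 97.75% of the gene's TPM. Over 5416 protein-coding genes at 10 TPM or more, coding transcripts made up a median of 96.4% of the TPM, and in 12.2% of these genes they made up less than 50%.

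Ncf4 was among those genes. Its coding transcript ENSMUST00000096357.7, of 1464 bases, was at 15.6 and 17.7 TPM, or 29.8% and 28.4% of the gene. A transcript annotated as a retained intron, ENSMUST00000148646.1, of 540 bases, was at 33.9 and 42.9 TPM, or 64.7% and 68.9% of the gene. Its intervals did not overlap between the libraries, whereas those of the coding transcript did. In reads the order was the reverse, since TPM divides by length: the retained intron transcript held 844 and 1000.5 reads, and the coding transcript 1286 and 1356. Of its 540 bases, 94 are absent from the main coding transcript, at chr15:78260878-78260971 on the plus strand (GRCm38). These 94 bases are shown because they are the part that sets the leading Ncf4 transcript apart from the coding one; they are in capitals, followed by 24 bases of the next exon in lower case.
Ncf4 retained intron: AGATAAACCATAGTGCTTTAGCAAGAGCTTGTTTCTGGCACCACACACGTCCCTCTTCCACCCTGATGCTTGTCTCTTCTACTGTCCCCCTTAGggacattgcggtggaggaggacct
The remaining bases of that transcript are shared with the coding one, and how reads on shared bases were divided rests on the authors' quantifier. With coding transcripts alone Ncf4 was at 17.4 ± 1.07 TPM (SD, n = 2), the lowest of the 6 in place of Cybb.

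Cybb showed a smaller part outside the coding transcript. ENSMUST00000015484.5, of 4752 bases, was at 23.2 and 30.1 TPM, or 83.5% and 82.3% of the gene, and took 97.6% and 96.9% of its reads. Both other transcripts above 5% were short retained introns, 1 with a higher and 1 with a lower level in replicate 2. ENSMUST00000131591.1 was at 1.72 and 4.52 TPM with intervals that did not overlap, from 84.1 and 206.6 reads. ENSMUST00000154503.1 was at 2.87 and 1.95 TPM with intervals that overlapped, from 76.2 and 48.5 reads.

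In Rac1 the coding transcript ENSMUST00000080537.9 was at 163.5 and 165.1 TPM, with intervals that overlapped between the libraries. The processed transcript ENSMUST00000145709.3, of 585 bases, was at 26.6 and 35.9 TPM, or 13.95% and 17.8% of the gene's TPM but 3.22% and 4.28% of its reads. A further coding transcript, ENSMUST00000100489.3, holds an extra exon of 57 bases and encodes the form known as Rac1b, which is described in human tumours as a fast-cycling GTPase. It was at 0.26 and 0.40 TPM, or 0.14% and 0.20% of the gene, from 35.8 and 50.7 reads, and its intervals overlapped. The exon lies at chr5:143509597-143509653 on the minus strand (GRCm38) and is shown in capitals, with 12 bases of each neighbouring exon in lower case, because it is what sets this transcript apart from the main coding one.
Rac1 extra exon: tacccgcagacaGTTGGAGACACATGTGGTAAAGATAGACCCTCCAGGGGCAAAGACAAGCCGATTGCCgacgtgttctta
Nearly all coding Rac1 RNA in both libraries was therefore assigned to the form without this exon.

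**Figure D3:**
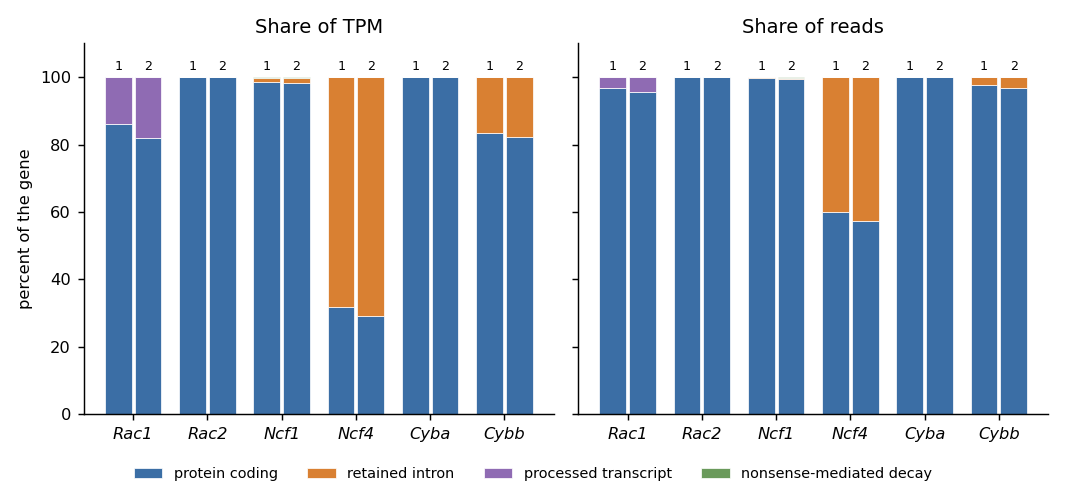
Percent of each gene's TPM (left) and of its reads (right) assigned to each annotated class of transcript, for replicates 1 and 2 of each gene. Ncf4 alone among the 6 has more TPM in retained introns than in coding transcripts, while its coding transcripts hold 60.1% and 57.4% of its reads.

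The balance between subunits depended on which transcripts were counted. With coding transcripts alone, the ratio of Ncf1 to Ncf4 was 3.38 in each library, against 1.09 and 1.00 over all transcripts. The ratio of Cyba to Cybb was 2.09 and 2.18, against 1.75 and 1.79. Rac2 then made up 41.0% and 44.2% of the pair of Rac genes, against 37.4% and 39.4%. In each form Cyba stood above Cybb and Rac1 above Rac2 in both libraries. Counting coding transcripts alone was added after the transcript shares had been seen.

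Strand use in the authors' counting is not stated in the labels or file headers, so reads of genes on opposite strands may not be told apart. Rac1 overlaps the diacylglycerol lipase gene Daglb over 2309 bases, and Daglb was at 8.18 and 8.06 TPM. Ncf1 overlaps Gtf2ird2 over 4303 bases, at 1.81 and 1.73 TPM. Cyba lies in its whole length of 8155 bases inside Gm20388, a gene model on the other strand at 7.63 and 7.49 TPM. These overlaps are of gene spans, introns included. Expected counts of Cyba were whole numbers, 1871 and 2348, whereas those of Gm20388, at 1809.37 and 1648.92, were not. Those of Ncf1, at 9052.93 and 9198.96, and of Gtf2ird2, at 374.07 and 332.04, were not whole, as when shared reads are divided. Which genes shared those reads was not tested.

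Further chains, relatives and partners of the enzyme were measured in a list of 12 genes. Rap1a, a small GTPase that copurifies with the flavocytochrome, and Cybc1 were the 2 that reached 1 TPM in both libraries. Cybc1, the chaperone needed for gp91phox to mature, was at 17.3 and 16.4 TPM with a log2 ratio of -0.08 (exact binomial test, adjusted p = 0.117). Rap1a was at 42.5 and 48.4 TPM with a log2 ratio of 0.23 (exact binomial test, adjusted p = 7.25e-18). The other catalytic chains were at or near 0. Nox3, Nox4, Duox2 and the partner genes Noxa1, Duoxa1 and Duoxa2 were listed at 0 in both libraries, Duox1 had 1 and 0 reads, and Nox1 was at 0 and 0.07 TPM. Noxo1, the Ncf1 relative that pairs with NOX1, had 21.7 and 20.5 reads. Of the 3 genes of the list that could be tested, Rap1a was higher in replicate 2 at the adjusted p and 0 were lower. Over all genes tested the shares were 29.4% and 29.7%. The median log2 ratio of the 3 was 0.01.

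Genes that switch Rac on and off were all measured. Each of 11 exchange factors, GTPase-activating proteins and GDP dissociation inhibitors reached 1 TPM in both libraries. At the adjusted p 6 were higher and 3 lower in replicate 2, beside 29.4% and 29.7% of all genes tested. At the fold threshold 0 were called, beside 7.66% of all genes tested, and the median log2 ratio was 0.07. The inhibitors that hold Rac in the cytosol led the list, and the blood form Arhgdib, at 1059 and 1158 TPM, stood well above both Rac genes together. The widely expressed form Arhgdia was at 165 and 174 TPM, near the level of Rac1. Elmo1, which works with DOCK proteins to load Rac with GTP, was at 53.9 and 49.99 TPM, with a log2 ratio of -0.07 (exact binomial test, adjusted p = 0.00167).

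Kinases that phosphorylate the cytosolic subunits or act just upstream, with the PI3-kinase regulatory subunit gene Pik3r5, were measured as 11 genes. Of these, 10 reached 1 TPM in both libraries. At the adjusted p 7 were higher and 1 lower in replicate 2, beside 29.4% and 29.7% of all genes tested. At the fold threshold 0 were called, beside 7.66% of all genes tested, and the median log2 ratio was 0.08. The 3 highest were Mapk14 (p38 alpha) at 45.6 and 46.1 TPM, Akt1 at 35.2 and 35.0 TPM, and Pik3cg, the gamma form of PI3-kinase, at 32.6 and 36.3 TPM. Mapk14 had a log2 ratio of 0.06 and Pik3cg of 0.19, with adjusted p = 0.0152 and 3.6e-22 in the exact binomial test. Akt1 did not pass, with a log2 ratio of 0.03 (exact binomial test, adjusted p = 0.334).

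A list of 7 genes held NADPH-supplying enzymes, further pentose phosphate enzymes and a channel that carries protons out after the electrons. Of these, 5 were higher and 1 lower in replicate 2 at the adjusted p, beside 29.4% and 29.7% of all genes tested. Their median log2 ratio was 0.23. The pentose phosphate genes led. G6pdx, which encodes the first enzyme of that pathway, was at 71.5 and 77.8 TPM, with a log2 ratio of 0.23 (exact binomial test, adjusted p = 6.81e-31). Tkt (transketolase) was at 61.6 and 83.7 TPM, with a log2 ratio of 0.49 (exact binomial test, adjusted p = 5.13e-168). Pgd, which makes the second NADPH of the pathway, was at 52.6 and 54.8 TPM, with a log2 ratio of 0.10 (exact binomial test, adjusted p = 0.000314). Hvcn1, the voltage-gated proton channel of phagocytes, had the highest ratio of this list. It was at 18.1 and 27.3 TPM, with a log2 ratio of 0.65 (exact binomial test, adjusted p = 5.5e-77).

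Genes that use or remove the oxidase's products were split in direction. All 13 reached 1 TPM in both libraries, and their median log2 ratio was -0.02. At the adjusted p 6 were higher and 3 lower in replicate 2, beside 29.4% and 29.7% of all genes tested. Mpo, whose enzyme turns hydrogen peroxide and chloride into hypochlorous acid, was by far the highest, with a log2 ratio of -0.16, opposite in sign to those of all 6 oxidase genes. Gpx1, a glutathione peroxidase, was at 1001 and 987 TPM, with a log2 ratio of 0.05. Sod1, the superoxide dismutase of the cytosol, was at 231 and 235 TPM, with a log2 ratio of 0.07.

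**Figure D4:**
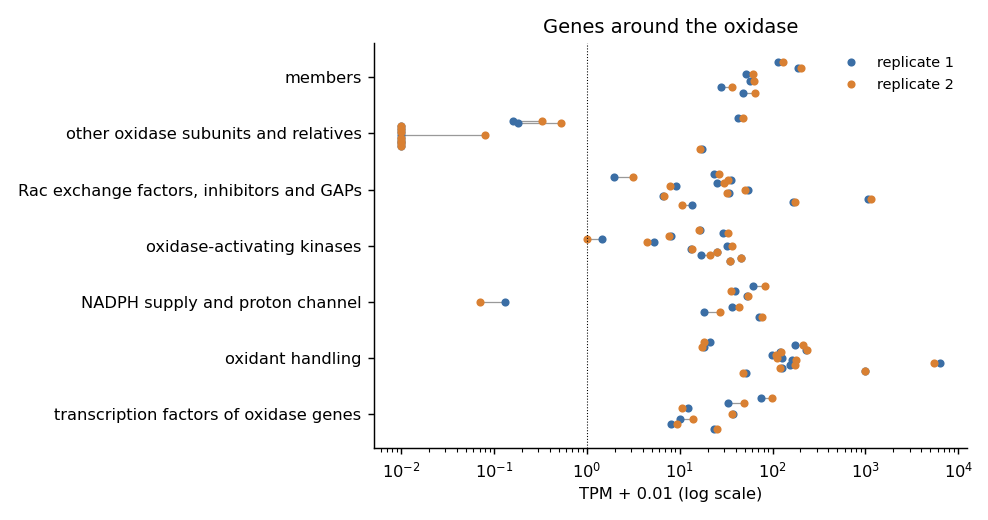
TPM plus 0.01 on a log scale for the oxidase genes and 6 lists of related genes, with 1 pair of points per gene, replicate 1 in blue and replicate 2 in orange joined by a line; the dotted line marks 1 TPM. The members lie between 27.8 and 202 TPM, while most other oxidase genes pile up at 0.

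Transcription factors that act on oxidase genes were measured as 7 genes, all at 1 TPM or more. At the adjusted p 6 were higher and 0 lower in replicate 2, beside 29.4% and 29.7% of all genes tested. At the fold threshold 0 were called, beside 7.66% of all genes tested, and the median log2 ratio was 0.24. Spi1, which encodes PU.1, was the highest at 75.1 and 97.7 TPM, with a log2 ratio of 0.39 (exact binomial test, adjusted p = 1.92e-45). Irf8, a partner of PU.1 in monocyte genes and also one of the 11 monocyte markers above, was at 33.5 and 49.3 TPM, with a log2 ratio of 0.61 (exact binomial test, adjusted p = 5.26e-129). Elf1, an ETS factor, was at 37.2 and 37.0 TPM, with a log2 ratio of 0.05 (exact binomial test, adjusted p = 0.0467). The 1 factor of the list that did not pass was Irf1, at 12.4 and 10.5 TPM. Its log2 ratio was -0.12 (exact binomial test, adjusted p = 0.0557). With 2 libraries, no relation between these factors and the oxidase genes can be measured.

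Promoter windows are shown for the 3 members that had one in RefSeq (GRCm38.p6), because PU.1, IRF1 and IRF8 are known from human myeloid cells to bind the CYBB promoter. The members Ncf4, Rac1 and Rac2 are named only. The windows were searched from 250 bases before to 50 bases after the start, on both strands, and are printed to base 30 after it, on the strand of the gene. The motifs were GAGGAA, a core of PU.1 sites, a joined ETS and IRF motif made of GGAA, 2 bases of any kind and GAAA, and an IRF motif made of GAAA, 2 bases of any kind and GAAA, the core of interferon-response elements that IRF proteins bind. Capitals mark the bases of a match.
Cybb, chrX:9469295-9469574, minus strand: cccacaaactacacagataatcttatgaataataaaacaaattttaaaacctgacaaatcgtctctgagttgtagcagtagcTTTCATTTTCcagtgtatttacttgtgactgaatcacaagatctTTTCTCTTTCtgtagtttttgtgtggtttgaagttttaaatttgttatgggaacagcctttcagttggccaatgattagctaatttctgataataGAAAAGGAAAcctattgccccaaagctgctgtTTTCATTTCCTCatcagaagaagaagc
Cyba, chr8:122432911-122433190, minus strand: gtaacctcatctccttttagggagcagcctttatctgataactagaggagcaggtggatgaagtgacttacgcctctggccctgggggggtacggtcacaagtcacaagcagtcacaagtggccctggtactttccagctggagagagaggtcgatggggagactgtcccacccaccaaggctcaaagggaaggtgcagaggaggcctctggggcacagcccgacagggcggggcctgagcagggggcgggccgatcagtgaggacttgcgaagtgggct
Ncf1, chr5:134229596-134229875, minus strand: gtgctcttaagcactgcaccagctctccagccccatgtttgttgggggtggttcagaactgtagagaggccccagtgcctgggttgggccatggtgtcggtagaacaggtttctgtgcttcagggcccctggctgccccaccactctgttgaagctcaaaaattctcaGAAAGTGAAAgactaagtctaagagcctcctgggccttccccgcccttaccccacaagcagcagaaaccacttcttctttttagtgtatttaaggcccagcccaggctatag
The Cybb window held all 3 motifs. The joined motif at bases 4 to 13 after the start and GAGGAA at bases 10 to 15 overlapped, both read on the opposite strand. The IRF motif matched 3 times, starting 168, 124 and 29 bases before the start. The Ncf1 window held the IRF motif once, starting 82 bases before the start, and the Cyba window held no match. Over 32851 RefSeq promoters of the same length, 28.3% held GAGGAA, 2.72% the joined motif and 3.44% the IRF motif. The windows also differed in base composition, with a GC content of 35.3% for Cybb, 60.7% for Cyba and 54.0% for Ncf1. The Cybb window lies inside the annotated span of its gene, which reaches 9487771, farther upstream on the minus strand. A match describes the letters only, since no binding was measured.

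The 6 genes lie on 4 chromosomes, and Ncf4 and Rac2 are the closest. They lie 297 kb apart on chromosome 15, whereas Ncf1 and Rac1 on chromosome 5 lie 9.27 Mb apart. Between Ncf4 and Rac2, 10 protein-coding genes were measured and 6 reached 1 TPM in both libraries. All 10 lay below the gene levels of Ncf4 and Rac2. The coding transcripts of Ncf4, at 16.6 and 18.1 TPM, lay below the highest of the 10. That gene was Csf2rb, the shared beta chain of the receptors for GM-CSF, IL-3 and IL-5, at 19.4 and 21.4 TPM, with a log2 ratio of 0.19 (exact binomial test, adjusted p = 5.4e-11). Tst, a sulfurtransferase gene of mitochondria, was at 16.04 and 9.93 TPM, with a log2 ratio of -0.64 (exact binomial test, adjusted p = 2.89e-16), so a gene between the pair differed in the opposite direction to both. Il2rb, the beta chain of the IL-2 receptor and a lymphoid gene, was at 0.26 and 0.24 TPM.

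**Figure D5:**
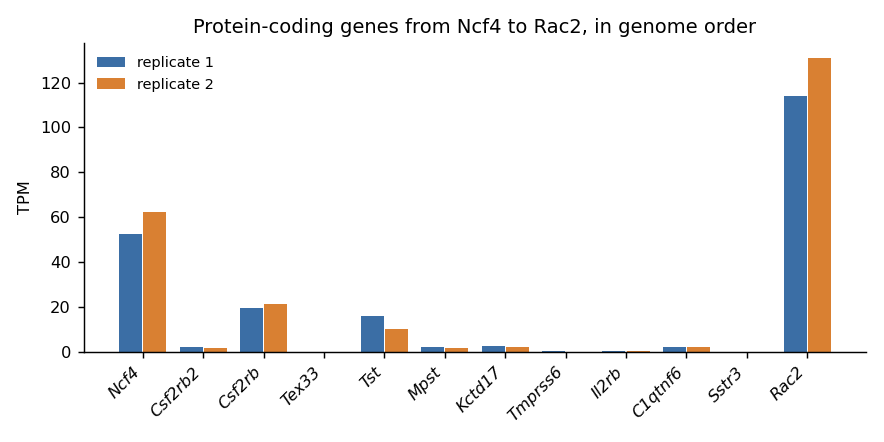
TPM of Ncf4, Rac2 and the 10 protein-coding genes measured between them on chromosome 15, in genome order, with replicate 1 in blue and replicate 2 in orange. Over all transcripts the genes at both ends, at 52.4 TPM or more, stand above all genes between them, of which Csf2rb is the highest at 19.4 and 21.4 TPM; the coding transcripts of Ncf4, not drawn, are at 16.6 and 18.1 TPM.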

How the data were processed

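Per the file lists deposited with the samples, reads were aligned to mm10 and quantified against GENCODE M4, 1 library at a time; no quantifier is named there. The deposited values, per the file headers, are expected counts (estimated reads), TPM and FPKM per effective length, score columns with the bounds of the authors' credibility intervals, and percent of a gene's TPM per transcript. TPM has a fixed total, so it falls where ribosomal or mitochondrial RNA is abundant. Here 42462 identifiers (98.0%) were matched to symbols of GENCODE M21 on GRCm38. Expected counts were rounded, and genes were kept by filterByExpr and scaled by TMM in edgeR 4.0.16 (R 4.3.3). Each gene was tested with an exact two-sided binomial test in SciPy 1.17.1 on 14304 genes. The code was checked on simulated counts with counting error only and 4-fold changes in genes at 10 TPM or more. That check does not give the error rate in these libraries. Ratios used a prior count of 2. Posterior means, FPKM, rescaled TPM, DESeq2 1.42.0 size factors, other filters and each library alone were tried. Of each list, the 3 highest genes by mean TPM, Cybc1 and any called gene were named. Hvcn1, Rac3, Irf1, Ly6c2, S100a8, Car1, Cd34, genes at or near 0 and those between Ncf4 and Rac2 were named after their values were seen. 1 further oxidase gene, left out of the lists, is not reported here. Members and lists were chosen with earlier results of these data known.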

Additional observations from a re-analysis of the deposited data

How the results depend on the processing

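The number of genes called between the libraries depended on the filter and the depth: it was 3385 of 19618 genes tested with no filter on low counts and 521 with all counts divided by 4, against 1096. Under both, and with DESeq2 size factors or total counts as library sizes, 0 of the 6 oxidase genes were called and all 6 were higher in replicate 2 at the adjusted p. Their log2 ratios kept their sign, with ranges of 0.46 to 0.48 for Cyba, 0.41 to 0.43 for Cybb and 0.05 to 0.07 for Rac1. With counts divided by 4, the largest adjusted p among them was 0.0319, for Rac1 (exact binomial test). With protein-coding transcripts alone the share of Rac2 was 42.6%, the log2 ratio of Cyba to Cybb 1.09 and that of Ncf1 to Ncf4 1.76. Ncf4 was then at 17.4 TPM and Rac1 at 165 TPM; the other levels that moved, 6 with FPKM and 6 with TPM rescaled over nuclear protein-coding genes, changed the scale for all 6 genes. With 1 library at a time the share of Rac2 was 37.4% to 39.4%, the log2 ratio of Cyba to Cybb 0.81 to 0.84 and that of Ncf1 to Ncf4 0.0039 to 0.12. No paired analysis was possible because the libraries form 1 group. With 2 libraries of the same donor identifier, the SDs describe these libraries only.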
